A study of Homo sapiens with 22 samples.

Results

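The mouse genes of 8 matrix metalloproteinases, Mmp2, Mmp3, Mmp9, Mmp10, Mmp11, Mmp13, Mmp14 and Mmp19, and of 2 of their inhibitors, Timp1 and Timp3, were followed in the host tissue of lung cancer xenografts. They were taken by symbol from the table of mouse genes, which lists 54532 genes, among them 23 Mmp and 4 Timp genes. The rule that chose the 10 genes names their symbols and uses no measured value, but the genes were chosen with earlier results of these data known. The xenografts were grown from H3122, a human lung adenocarcinoma cell line driven by an ALK fusion, in hHGF-NSG mice, NSG mice humanized for the growth factor HGF by the series' title, and in NSG mice, an immunodeficient strain that lacks T, B and NK cells. Tumours of each host were therapy-naive or had been treated with alectinib, an inhibitor of the ALK kinase, for 2 or 6 weeks, and every group carried the same tumour line. Bulk RNA sequencing of tumour tissue was mapped to the human and to the mouse genome, so mouse transcripts stand for host cells and human ones for tumour cells. The mouse table gave 3 libraries of naive, 4 of 2-week and 3 of 6-week tumours from hHGF-NSG hosts, and the same numbers from NSG hosts. Age and sex of the mice, the alectinib dose and what drives the human HGF were not given in the sources used here, and all tumours come from 1 cell line.

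Matrix metalloproteinases are zinc-dependent enzymes that cut collagens, proteoglycans and other proteins of the extracellular matrix. Most are secreted as inactive zymogens and are switched on by removal of a propeptide, while Mmp14 sits in the cell membrane and activates Mmp2, and Mmp11 is activated inside the cell by furin. The tissue inhibitors of metalloproteinases, the Timp proteins, bind the active site. In carcinomas much of this proteolytic system is made by fibroblasts, macrophages and neutrophils of the stroma, and transcript levels say nothing of enzyme activity.

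Levels are given as FPKM, read fragments scaled to gene length and library size as the authors deposited them, with the standard deviation (SD) over libraries. Changes are differences of mean log2(FPKM + 1) with their standard error (SE) from limma, a linear model fitted to all 14287 mouse genes at 1 FPKM or more in at least 3 libraries. All 10 genes passed this filter, Mmp10 only through its naive and a few treated libraries, with 9 of 20 libraries at 1 FPKM or more. A gene was called changed where its p, adjusted over all genes tested by the Benjamini-Hochberg method, was under 0.05. On this scale the median change of all genes tested was 0.00 to 0.06 in every comparison.

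Mouse libraries held 895826 to 5766509 reads, 2594895 to 5766509 at 6 weeks and 895826 to 2471749 in naive tumours. Of the human and mouse reads of a sample together, 5.50% to 13.5% were mouse in naive, 8.71% to 20.2% in 2-week and 16.9% to 28.95% in 6-week tumours. How far human reads entered the mouse table was not tested. One NSG library, naive replicate 1, goes against its label in that it held 43 reads of human HGF, against 13 to 79 in the 10 hHGF-NSG libraries and 0 to 6 in the other 11 NSG libraries, so the calls of the 10 genes against NSG naive tumours are also given without it. Markers of host cell types moved with treatment. Among all genes 9.67% rose and 8.12% fell at 6 weeks in hHGF-NSG, and 8.81% rose and 8.59% fell in NSG hosts. At 6 weeks, 5 of 5 adipocyte markers rose in either host, 3 of 4 myofibroblast and smooth muscle markers fell, and 3 of 5 endothelial markers fell. Of 5 neutrophil markers tested, 3 fell at 6 weeks in hHGF-NSG and 5 in NSG hosts. Fibroblast markers were present in every library, with 2 and 3 of 7 higher at 6 weeks in hHGF-NSG and NSG hosts. Of 4 markers of T and NK cells, Cd3d, Ncr1 and Klrb1c were at 0 reads throughout, and Cd3e reached 0.549 FPKM at most, in an NSG naive library. In bulk tissue, fewer cells of a type and less RNA per cell cannot be told apart.

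Alectinib was accompanied by opposite movements within the family. At 2 weeks Mmp13 and Mmp10 fell in both hosts and none of the 10 genes rose, which makes 2 of 10 lower in hHGF-NSG hosts, where 3.56% of all genes fell and 3.49% rose, and 2 of 10 lower in NSG hosts, where 4.48% of all genes fell and 3.32% rose. At 6 weeks 3 of 10 were lower in hHGF-NSG hosts, Mmp10, Mmp13 and Timp1, and 1 was higher, Mmp11, against 8.12% and 9.67% of all genes. In NSG hosts at 6 weeks Mmp10, Mmp13 and Timp1 were lower and Mmp11 and Mmp2 were higher, against 8.59% lower and 8.81% higher among all genes. The median change of the 10 genes was -0.27 and -0.06 at 2 weeks and -0.72 and -0.16 at 6 weeks in hHGF-NSG and NSG hosts. Both times are set against the same naive libraries of each host, so they are not independent of each other.

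**Figure D1:**
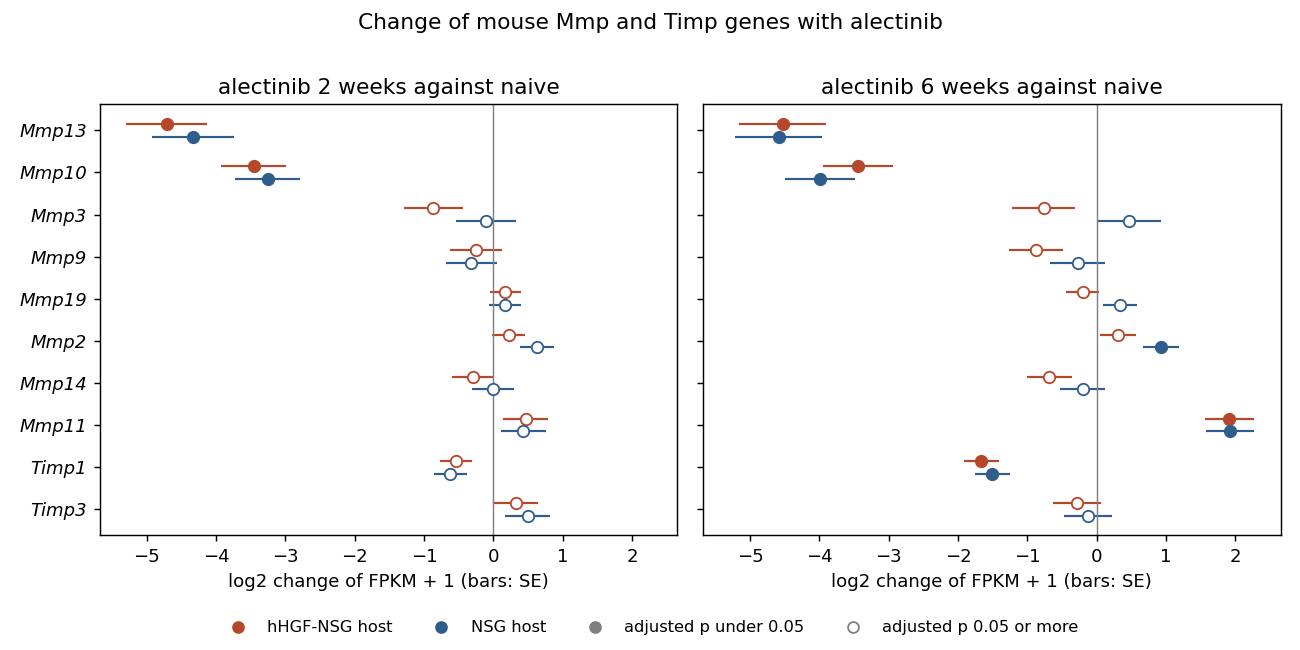
Change of the 10 mouse genes with alectinib on the log2(FPKM + 1) scale, at 2 weeks (left) and 6 weeks (right) against naive tumours; points are the fitted change in hHGF-NSG and NSG hosts, bars the SE, filled points an adjusted p under 0.05. Mmp13 and Mmp10 lie far left at both times, Mmp11 lies right and Timp1 left at 6 weeks, and Mmp2 is filled only in NSG hosts at 6 weeks.

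Mmp13 is the main interstitial collagenase of the mouse, an enzyme that cleaves fibrillar collagen and is made by fibroblasts and osteoblasts. In hHGF-NSG hosts it stood at 161, 97.8 and 53.5 FPKM in naive tumours, at 6.07, 3.75, 0.517 and 2.47 FPKM after 2 weeks and at 2.95, 2.37 and 4.36 FPKM after 6 weeks. In NSG hosts the values were 39.2, 92.9 and 205 FPKM in naive tumours, 2.10, 1.87, 2.87 and 11.6 FPKM after 2 weeks and 1.38, 4.20 and 3.57 FPKM after 6 weeks. Every treated library lay below every naive one, and the 2-week and 6-week libraries overlapped. In reads, 220 to 667 per naive library stood against 4 to 72 per 2-week and 10 to 51 per 6-week library, although the treated libraries were mostly deeper.

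The mean of Mmp13 was 32.5-fold lower at 2 weeks in hHGF-NSG hosts and 24.4-fold lower in NSG hosts. Its log2 change was -4.71 ± 0.59 in hHGF-NSG (SE, limma adjusted p = 0.000107) and -4.33 ± 0.59 in NSG hosts (adjusted p = 0.000181). At 6 weeks the change was -4.53 ± 0.63 in hHGF-NSG (adjusted p = 0.000128) and -4.58 ± 0.63 in NSG hosts (adjusted p = 9.00e-05). Without NSG naive replicate 1, which had the lowest Mmp13 of the naive libraries, the changes in NSG hosts were -4.93 and -5.18. Between 2 and 6 weeks there was no further called change, with 0.19 ± 0.59 in hHGF-NSG and -0.25 ± 0.59 in NSG hosts.

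Mmp10, or stromelysin-2, degrades proteoglycans and glycoproteins and activates other zymogens of the family. In hHGF-NSG hosts its levels were 47.2, 12.7 and 12.0 FPKM in naive tumours, 0.533, 0.582, 0.201 and 3.14 FPKM after 2 weeks and 0.602, 0.614 and 1.59 FPKM after 6 weeks. In NSG hosts they were 10.4, 10.5 and 34.8 FPKM in naive tumours and 0.502, 0.671, 1.16 and 0.749 FPKM after 2 weeks, and at 6 weeks 1 library held 1 read (0.167 FPKM) and the other 2 held none. As for Mmp13, no treated library reached the lowest naive one. In each host 1 naive library, replicate 1 in hHGF-NSG and replicate 4 in NSG, stood apart as the highest for Mmp10 and was also the highest for Mmp13.

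The 2-week change of Mmp10 was -3.46 ± 0.47 in hHGF-NSG (limma adjusted p = 0.000267) and -3.25 ± 0.47 in NSG hosts (adjusted p = 0.000316). At 6 weeks it was -3.44 ± 0.50 in hHGF-NSG (adjusted p = 0.00019) and -3.99 ± 0.50 in NSG hosts (adjusted p = 3.67e-05). The means at 2 weeks were 21.5-fold lower in hHGF-NSG and 24.1-fold lower in NSG hosts. With 1 to 9 reads per 2-week library and 0 to 12 per 6-week library, the size of these changes depends on the pseudocount, and with 0.1 in place of 1 the 6-week change in NSG hosts was -6.82. Without NSG naive replicate 1 the changes in NSG hosts were -3.53 and -4.27.

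The summed level of 6 neutrophil markers was 42.2 to 297 FPKM in naive, 10.2 to 65.7 FPKM in 2-week and 10.2 to 19.2 FPKM in 6-week libraries, and that of 5 endothelial markers 164 to 216, 86.3 to 144 and 75.7 to 117 FPKM. Keratinocyte markers summed to 9.75 to 26.4, 2.16 to 4.97 and 1.59 to 3.67 FPKM, with Krt5 and Krt1 under 1 FPKM in every library. Only 2 of these 5 markers were tested. At 2 weeks in NSG hosts 1 was called lower and 1 higher (4.48% and 3.32% of all genes). At 2 weeks in hHGF-NSG hosts 1 was lower and 0 higher (3.56% and 3.49%). At 6 weeks 1 was lower and 0 higher in either host (8.12% of all genes lower in hHGF-NSG and 8.59% in NSG). The 4 pericyte markers summed to 121 to 151, 83.0 to 108 and 74.4 to 90.7 FPKM, with no overlap between naive and treated libraries. At 6 weeks 2 of 4 fell in hHGF-NSG (8.12% of all genes) and 4 of 4 in NSG hosts (8.59%). These sums, which follow the most abundant markers of each list, were lower where Mmp13 and Mmp10 were lower. Their part in the result was not tested.

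Both genes lie in a cluster on mouse chromosome 9. The order in the mm10 coordinates of the deposited table is Mmp13 (7272514 to 7283331, forward strand), Mmp12, Mmp1b, Mmp3 (7445822 to 7455975, forward strand), Mmp1a, Mmp10 (7502352 to 7510240, forward strand), Mmp8, Mmp27, Mmp20 and Mmp7, 10 Mmp genes in all. The genes of the cluster were not all called, which does not show that the others stayed unchanged. Mmp3, which lies between Mmp13 and Mmp10, was not called in any comparison, and Mmp1a, Mmp1b and Mmp20 had no read in any library.

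Mmp3, or stromelysin-1, cuts proteoglycans, laminin and fibronectin and activates other zymogens. Its mean was 334 ± 245, 168 ± 86.3 and 179 ± 89.9 FPKM in naive, 2-week and 6-week tumours of hHGF-NSG hosts, and 202 ± 71.4, 183 ± 41.0 and 275 ± 68.1 FPKM in NSG hosts (SD, n = 3, 4 and 3). The wide spread in naive hHGF-NSG tumours came from replicate 1 at 613 FPKM, against 232 and 156 FPKM in the others. Its 2-week changes were -0.87 ± 0.43 in hHGF-NSG and -0.11 ± 0.43 in NSG hosts (limma adjusted p = 0.235 and 0.917). The 6-week changes were -0.76 ± 0.46 in hHGF-NSG and 0.47 ± 0.46 in NSG hosts (limma adjusted p = 0.279 and 0.527). The groups overlapped in either host. Per length, the group means of Mmp3 were of the order of those of Mmp14 and below those of Mmp2.

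Of the other genes of the cluster, Mmp12, the elastase of macrophages, fell at 2 weeks and was not called at 6 weeks. Its levels were 28.0, 28.3 and 8.61 FPKM in naive, 3.21, 4.36, 1.53 and 3.15 FPKM in 2-week and 11.1, 9.03 and 9.79 FPKM in 6-week tumours of hHGF-NSG hosts. In NSG hosts they were 11.5, 24.8 and 42.1 FPKM in naive, 2.27, 3.09, 4.93 and 7.07 FPKM in 2-week and 11.8, 8.78 and 15.4 FPKM in 6-week tumours. The 6-week libraries lay above the 2-week ones in both hosts and overlapped with the naive ones. The 2-week changes were -2.36 ± 0.42 in hHGF-NSG and -2.26 ± 0.42 in NSG hosts (limma adjusted p = 0.00253 and 0.00257), and the 6-week ones -0.88 and -0.92 (adjusted p = 0.193 and 0.172). At 6 weeks Mmp12 was called in hHGF-NSG hosts without naive replicate 3 (adjusted p = 0.0289) and in NSG hosts without naive replicate 1 (adjusted p = 0.0392). The step between 6 and 2 weeks, 1.48 in hHGF-NSG and 1.34 in NSG hosts, missed the threshold (adjusted p = 0.091 and 0.0831). Voom, limma's method for reads, called this step in both hosts (1.82 and 1.58, adjusted p = 0.0192 and 0.018), and in NSG hosts so did the fits without NSG naive replicate 1 or hHGF-NSG naive replicate 3.

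Mmp8, the collagenase of neutrophils, was low throughout, at 0 to 1.24 FPKM in treated and 1.73 to 6.09 FPKM in naive tumours. It passed the filter through the 6 naive libraries, with only 1 treated library at 1 FPKM or more, so its calls are a description of a gene kept for its naive level. It was called lower in all 4 comparisons with naive tumours, by -1.29 to -1.77, and of these only the 6-week call in NSG hosts held under each of 26 alternative settings. The 2-week call in hHGF-NSG hosts was lost without naive replicate 1 or 2 or 2-week replicate 1, 3 or 4, and the 6-week one without naive replicate 1 or 6-week replicate 3. Mmp27, the last gene of the cluster that was tested, was at 2.00 to 8.17 FPKM and was called in no comparison.

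**Figure D2:**
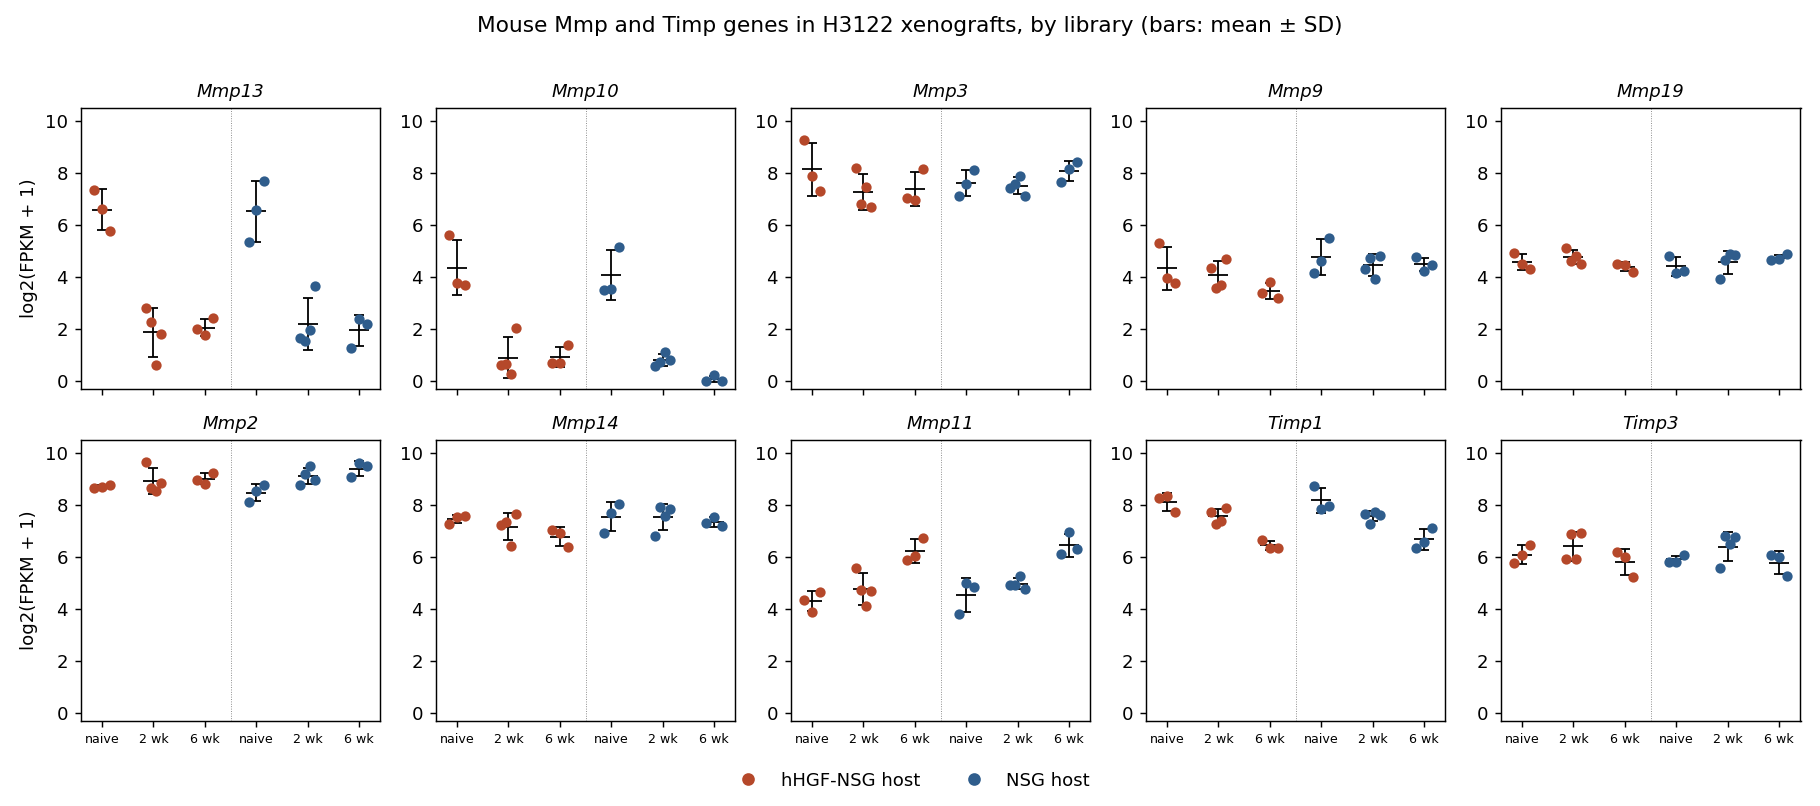
Levels of the 10 mouse genes as log2(FPKM + 1) in each of the 20 mouse libraries, by host and time on alectinib; points are libraries, bars the mean and SD. Mmp13 and Mmp10 are high only in naive tumours, Mmp11 is highest and Timp1 lowest at 6 weeks, and the remaining genes overlap between most groups.

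Mmp2 (chromosome 8, 92827291 to 92853420, forward strand), gelatinase A, is a fibroblast enzyme that cuts denatured and basement membrane collagen, and it was the most abundant Mmp transcript per length in the mean of every group. It was at 394, 411 and 434 FPKM in naive, 790, 398, 369 and 459 FPKM in 2-week and 499, 445 and 602 FPKM in 6-week tumours of hHGF-NSG hosts. In NSG hosts it was at 274, 368 and 432 FPKM in naive, 432, 574, 717 and 494 FPKM in 2-week and 533, 786 and 716 FPKM in 6-week tumours. All 6-week libraries were above all naive ones within either host. The 6-week change was 0.31 ± 0.26 in hHGF-NSG (limma adjusted p = 0.469) and 0.93 ± 0.26 in NSG hosts (adjusted p = 0.0192). The call in NSG hosts was lost without NSG naive replicate 1 (0.75, adjusted p = 0.0782), without NSG 6 weeks replicate 2 (0.81, adjusted p = 0.0807) or without replicate 3 of that group (0.88, adjusted p = 0.0652).

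Mmp14 (chromosome 14, 54431612 to 54445364, forward strand), the membrane-bound enzyme that activates Mmp2, was called in no comparison. It averaged 175 ± 19.4, 149 ± 48.4 and 110 ± 25.8 FPKM in naive, 2-week and 6-week tumours of hHGF-NSG hosts and 194 ± 68.7, 192 ± 58.8 and 162 ± 20.6 FPKM in NSG hosts (SD, n = 3, 4 and 3). In hHGF-NSG hosts all 6-week libraries, at 81.2 to 130 FPKM, lay below all naive ones, at 153 to 187 FPKM, with a change of -0.68 ± 0.32 that missed the threshold (limma adjusted p = 0.161). In NSG hosts the libraries overlapped, with a 6-week change of -0.20 ± 0.32 (adjusted p = 0.726).

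Mmp9 (chromosome 2, 164940780 to 164955850, forward strand), gelatinase B, is carried by neutrophils and made by macrophages. It averaged 21.6 ± 14.2, 16.8 ± 6.56 and 10.2 ± 2.58 FPKM in naive, 2-week and 6-week tumours of hHGF-NSG hosts and 28.3 ± 14.4, 21.4 ± 6.17 and 21.6 ± 4.13 FPKM in NSG hosts (SD, n = 3, 4 and 3). No comparison with naive tumours was called for Mmp9, with 6-week changes of -0.87 ± 0.39 in hHGF-NSG and -0.27 ± 0.39 in NSG hosts (limma adjusted p = 0.141 and 0.69). The neutrophil markers given above fell in the same libraries. The summed level of 6 macrophage markers was 1536 to 2155 FPKM in 6-week and 1840 to 2614 FPKM in naive libraries, which overlapped. At 6 weeks 3 of 6 macrophage markers fell in hHGF-NSG (8.12% of all genes) and 2 of 6 in NSG hosts (8.59%), with none higher. Their part in the level of Mmp9 was not tested.

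Mmp11 (chromosome 10, 75923222 to 75936496, reverse strand), or stromelysin-3, is made by fibroblasts of carcinomas and remodelling tissues and acts more on serum and adipose proteins than on fibrillar collagen. In hHGF-NSG hosts its levels were 19.4, 13.8 and 24.1 FPKM in naive, 46.4, 25.4, 16.1 and 24.4 FPKM in 2-week and 57.4, 64.8 and 105 FPKM in 6-week tumours. In NSG hosts they were 12.7, 30.5 and 27.2 FPKM in naive, 28.8, 29.2, 37.1 and 26.1 FPKM in 2-week and 67.8, 122 and 77.2 FPKM in 6-week tumours. Every 6-week library lay above every naive and 2-week library, while naive and 2-week libraries overlapped.

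Its mean at 6 weeks was 3.97-fold that of naive tumours in hHGF-NSG and 3.80-fold in NSG hosts, with a change of 1.92 ± 0.35 in either host (limma adjusted p = 0.00103 and 0.000948). The 2-week changes were 0.47 ± 0.33 in hHGF-NSG and 0.43 ± 0.33 in NSG hosts and missed the threshold (adjusted p = 0.421 and 0.472). Without NSG naive replicate 1, the lowest of its group, the 6-week change in NSG hosts was 1.55 (adjusted p = 0.00517). Mmp11 overlaps Chchd10 on the opposite strand, a gene at up to 25.3 FPKM, and the sources used here do not say whether counting used strand.

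Mmp19, which cuts basement membrane proteins, was steady at 14.2 to 33.9 FPKM over all 20 libraries. Its changes against naive tumours lay between -0.20 and 0.34, each with an SE of 0.23 or 0.24, and no comparison was called. It lies on chromosome 10 (128790910 to 128800824, forward strand) and overlaps Tmem198b on the opposite strand, at 5.95 FPKM at most.

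Timp1 is the inhibitor of the family that is induced by cytokines and binds most soluble members. In hHGF-NSG hosts it was at 306, 320 and 208 FPKM in naive, 208, 154, 166 and 233 FPKM in 2-week and 99.4, 79.3 and 79.8 FPKM in 6-week tumours. In NSG hosts it was at 423, 230 and 245 FPKM in naive, 200, 153, 208 and 193 FPKM in 2-week and 80.0, 93.6 and 137 FPKM in 6-week tumours. Every 6-week library lay below every other library, and 2-week libraries lay below naive ones in NSG hosts and just overlapped with them in hHGF-NSG hosts.

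At 6 weeks Timp1 was 3.22-fold lower than in naive tumours of hHGF-NSG hosts and 2.89-fold lower in NSG hosts, with changes of -1.66 ± 0.25 and -1.50 ± 0.25 (limma adjusted p = 0.000222 and 0.000421). The 2-week changes of -0.54 ± 0.23 in hHGF-NSG and -0.62 ± 0.23 in NSG hosts missed the threshold (adjusted p = 0.173 and 0.115). Without NSG naive replicate 1, whose 423 FPKM was the highest value, the 6-week change in NSG hosts was -1.23 (adjusted p = 0.00197). Timp1 lies on the X chromosome (20870166 to 20874735, forward strand) within Syn1, which is on the opposite strand and reached 2.68 FPKM at most.

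Timp3 (chromosome 10, 86300372 to 86349506, forward strand) is bound to the matrix and also inhibits ADAM and ADAMTS proteases. It averaged 68.1 ± 16.8, 88.3 ± 32.9 and 56.6 ± 18.0 FPKM in naive, 2-week and 6-week tumours of hHGF-NSG hosts and 58.7 ± 6.24, 87.4 ± 28.8 and 55.4 ± 15.9 FPKM in NSG hosts (SD, n = 3, 4 and 3). The 2-week mean was the highest in either host and no comparison was called.

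Timp2, the partner of Mmp14 in the activation of Mmp2, was the most abundant Timp transcript per length in the mean of every group, at 269 to 465 FPKM, and was called in no comparison. Timp4 rose with treatment at low levels, being 10.8 to 19.3 FPKM in 6-week and 0.324 to 0.802 FPKM in naive tumours of hHGF-NSG hosts, and 5.51 to 7.87 FPKM in 6-week and 0 to 1.14 FPKM in naive tumours of NSG hosts. Its 6-week changes were 3.27 ± 0.50 in hHGF-NSG and 2.35 ± 0.50 in NSG hosts (limma adjusted p = 0.000257 and 0.00291). Timp4 passed the filter through treated libraries, so its calls are a description of a gene kept for its level under treatment. Timp4 is known from fat and heart, and the summed level of 5 adipocyte markers was 124 to 562 FPKM in naive, 261 to 1952 FPKM in 2-week and 1755 to 3615 FPKM in 6-week libraries. The part of these cells in the change of Timp4 was not tested.

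Of the 17 Mmp and Timp genes outside the set of 10, 9 passed the filter. Of these 3 fell at 6 weeks in hHGF-NSG hosts, Mmp8, Mmp15 and Mmp17, and 2 rose, Timp4 and Mmp28, while in NSG hosts Mmp8 and Mmp15 fell and Timp4 rose. Among all genes 8.12% fell and 9.67% rose in hHGF-NSG, and 8.59% and 8.81% in NSG hosts. Mmp15, a membrane-bound enzyme related to Mmp14, was at 2.25 to 3.69 FPKM in 6-week and 5.70 to 9.35 FPKM in naive tumours of hHGF-NSG hosts, with a change of -1.11 ± 0.25 (limma adjusted p = 0.00479). In NSG hosts it was at 1.65 to 2.32 FPKM in 6-week and 4.48 to 9.58 FPKM in naive tumours, with a change of -1.42 ± 0.25 (adjusted p = 0.000753). The changes of Mmp17 and Mmp28, at -0.95 and 1.08, rested on levels of at most 4.43 and 7.63 FPKM.

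The later step, 6 weeks against 2 weeks, was called for 2 of the 10 genes in each host. Mmp11 was higher at 6 weeks than at 2 weeks by 1.45 ± 0.33 in hHGF-NSG (limma adjusted p = 0.0419) and 1.49 ± 0.33 in NSG hosts (adjusted p = 0.0164). Timp1 was lower by -1.12 ± 0.23 in hHGF-NSG (adjusted p = 0.0278) and -0.88 ± 0.23 in NSG hosts (adjusted p = 0.0391). Among all genes 0.714% were higher and 0.371% lower in hHGF-NSG, and 2.39% higher and 1.5% lower in NSG hosts. The direction held under all 26 alternatives for both genes, but the calls were near the threshold. The call of Mmp11 in NSG hosts was lost without NSG 6 weeks replicate 2 (adjusted p = 0.0931), the others in 7 to 11 of 26 alternatives.

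These later calls in hHGF-NSG hosts were lost without replicate 2 or 3 of the 6-week group or replicate 4 of the 2-week group for either gene, and also without 2-week replicate 2 for Mmp11 and 2-week replicate 1 for Timp1. For Mmp11 they were also lost without NSG 2 weeks replicate 1 or 2 or NSG 6 weeks replicate 3, which enter through the shared estimate of spread, with adjusted p up to 0.222 over all alternatives. The call of Timp1 in NSG hosts was lost without any single 2-week library or without 6-week replicate 1 or 2, with adjusted p up to 0.196. With reads thinned to the smallest mouse library, an alternative chosen after seeing the data because depth grew with treatment, 3 of the 4 later calls were lost, those of Mmp11 in hHGF-NSG hosts (adjusted p = 0.0728) and of Timp1 in hHGF-NSG (0.0945) and NSG hosts (0.208). The same 3 were lost with no filter on low values and with a replicate block.

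The make-up of the summed transcripts differed between times, and these sums are given as values with no test. The summed FPKM of all Mmp genes averaged 1191 ± 310, 954 ± 305 and 969 ± 161 in naive, 2-week and 6-week tumours of hHGF-NSG hosts and 1037 ± 357, 1079 ± 192 and 1314 ± 217 in NSG hosts (SD, n = 3, 4 and 3). The 4 Timp genes summed to 787 ± 42.5, 643 ± 102 and 496 ± 68.3 FPKM in hHGF-NSG and 766 ± 50.1, 635 ± 60.1 and 545 ± 24.1 FPKM in NSG hosts. All 6-week libraries lay below all naive ones for the Timp sum, at 456 to 575 against 741 to 824 FPKM in hHGF-NSG and 524 to 572 against 713 to 812 FPKM in NSG hosts, while the Mmp sums overlapped.

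The ratio of the Mmp to the Timp sum was 1.50 ± 0.32, 1.47 ± 0.31 and 1.98 ± 0.48 in naive, 2-week and 6-week tumours of hHGF-NSG hosts and 1.36 ± 0.48, 1.69 ± 0.21 and 2.40 ± 0.31 in NSG hosts. In hHGF-NSG hosts the ranges of 6-week (1.58 to 2.52) and naive (1.30 to 1.87) libraries overlapped, and in NSG hosts they did not (2.04 to 2.59 at 6 weeks and 0.851 to 1.81 in naive tumours). In naive, 2-week and 6-week tumours, Mmp13 made up 8.38%, 0.314% and 0.328% of the Mmp sum in hHGF-NSG and 9.79%, 0.444% and 0.223% in NSG hosts. Mmp11 made up 1.68%, 2.87% and 7.71% in hHGF-NSG and 2.26%, 2.84% and 6.72% in NSG hosts. Mmp2 made up 36.4%, 52.2% and 53.3% in hHGF-NSG and 35.5%, 51.1% and 51.5% in NSG hosts, the largest share at each time. Of the Timp sum, Timp1 made up 35.1%, 29.7% and 17.4% in hHGF-NSG and 38.7%, 30.0% and 19.0% in NSG hosts.

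**Figure D3:**
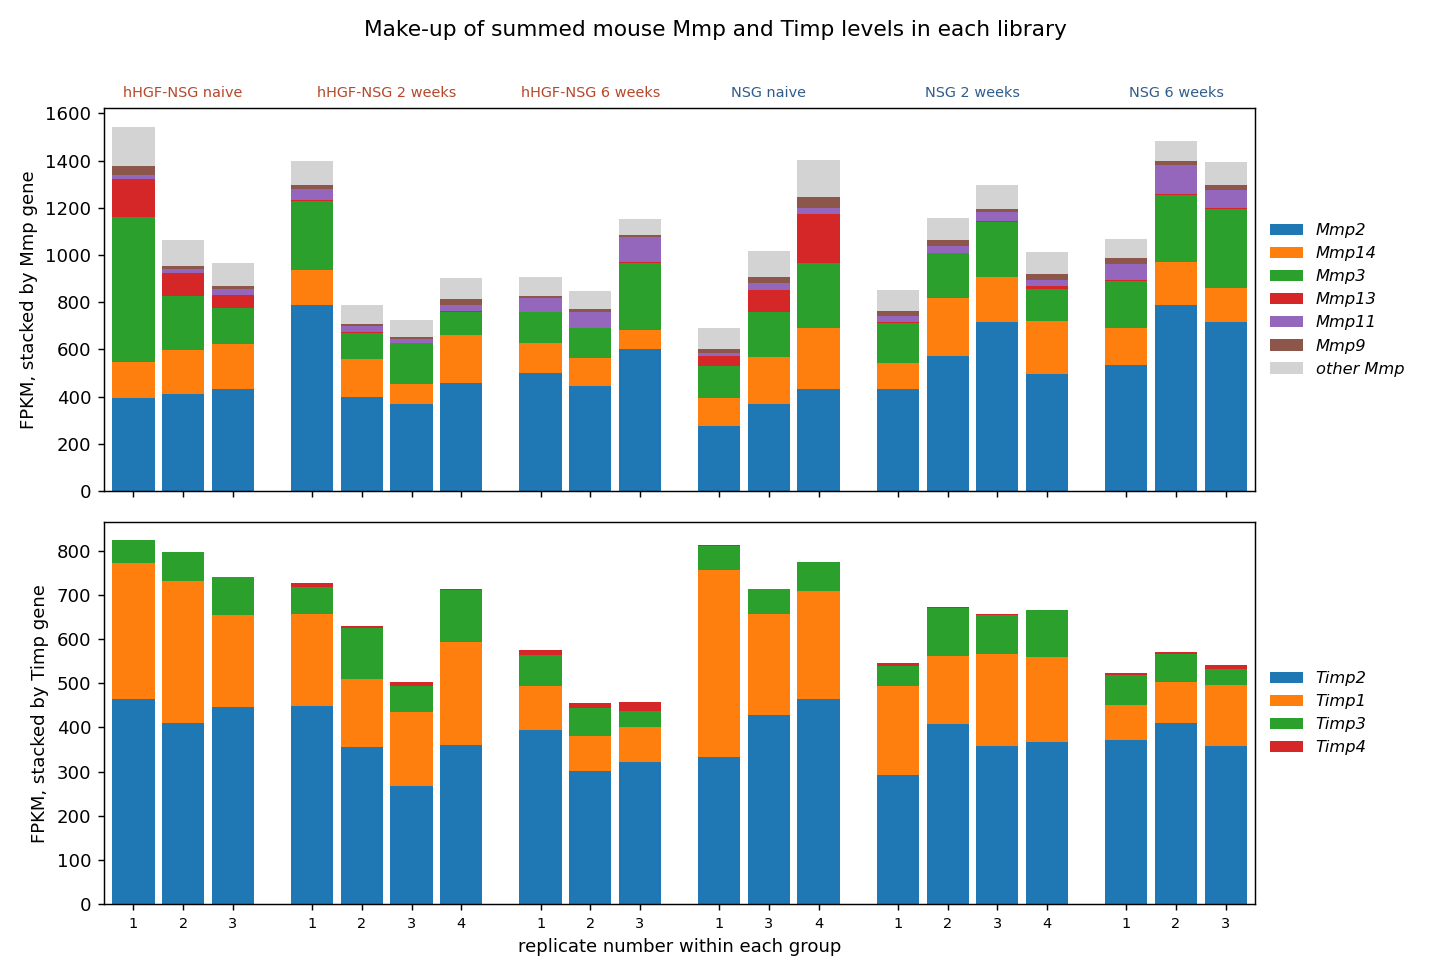
Make-up of summed mouse Mmp levels (top) and Timp levels (bottom) in each library, in FPKM stacked by gene, by host, time and replicate number. The Mmp13 segment is visible in naive libraries and nearly absent in treated ones, the Mmp11 segment is widest at 6 weeks, and the Timp1 segment is narrowest there.

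Beside the genes that moved at 6 weeks, the summed level of 4 myofibroblast and smooth muscle markers was 85.4 to 190 FPKM in 6-week and 514 to 948 FPKM in naive libraries. Fibroblast markers summed to 2660 to 3078 FPKM in 6-week and 3568 to 4913 FPKM in naive libraries of hHGF-NSG hosts, which did not overlap, and to 2929 to 4094 FPKM and 2790 to 6391 FPKM in NSG hosts, which did. The sum follows the most abundant markers and does not stand for each of them. In hHGF-NSG hosts 2 of the 7 fibroblast markers were called higher at 6 weeks and 0 lower, with a median change of 0.05. Their part in the changes of Mmp11, Timp1 and Mmp2 was not tested. Against naive tumours, thinned reads gave 6-week changes of 1.88 and 1.86 for Mmp11 and -1.66 and -1.50 for Timp1 in hHGF-NSG and NSG hosts, and kept these 4 calls.

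Of the 10 genes, 0 were called between hHGF-NSG and NSG hosts in naive tumours, at 2 weeks or at 6 weeks, against 0.042%, 0.371% and 0.252% of all genes in either direction. The share in naive tumours stands for 6 genes, and without NSG naive replicate 1, the library with human HGF reads, 119 genes were called there. At an unadjusted p under 0.05 limma gave 0, 0 and 1 of 10, against 10.1%, 7.85% and 4.95% of all genes. Voom called 0 of 10 at each time and gave 0, 0 and 3 of 10 at an unadjusted p under 0.05, against 5.16%, 9.41% and 8.74% of all genes. The 1 gene was Mmp9 at 6 weeks, at 9.49, 13.0 and 8.01 FPKM in hHGF-NSG against 26.1, 18.0 and 20.8 FPKM in NSG hosts, libraries that did not overlap, with a difference of -1.03 ± 0.39 (limma adjusted p = 0.831). For Mmp13, Mmp10, Mmp11 and Timp1 the host differences lay between -0.32 and 0.84, with SE of 0.21 to 0.63, so a p above the threshold does not show that the hosts were alike. At 6 weeks the libraries of the hosts did not overlap for 4 of 10 genes, with Mmp9, Mmp14 and Mmp19 lower and Mmp10 higher in hHGF-NSG hosts, against 14.3% of all genes in either direction. In naive tumours and at 2 weeks this held for 0 of 10, against 9.22% and 4.49% of all genes, and none of the 4 genes was called. For Mmp10 the 6-week gap rested on 5 to 12 reads per hHGF-NSG library against 0 to 1 per NSG library. The hHGF-NSG libraries were also deeper then, with 4356095 to 5766509 against 2594895 to 3340218 reads.

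The response to alectinib was compared between hosts by an F-test over both times. None of the 10 genes was called, against 0.021% of all genes, with 0 of 10 at an unadjusted p under 0.05 in limma (5.45% of all genes) and 1 of 10, Mmp10, in voom (4.21%), which also called none. The 6-week change in hHGF-NSG minus that in NSG hosts was 0.06 ± 0.89 for Mmp13, 0.55 ± 0.71 for Mmp10, -0.01 ± 0.50 for Mmp11 and -0.16 ± 0.35 for Timp1. The widest gap was that of Mmp3, at -1.23 ± 0.64, with an F-test adjusted p of 0.965.

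Proteases and inhibitors that act with the Mmp system also moved, mostly down. Of 17 ADAM and ADAMTS genes tested, 6 were lower and none higher at 2 weeks in each host, and at 6 weeks 10 were lower and none higher in hHGF-NSG and 11 lower and 1 higher in NSG hosts. Of all genes 3.56% were lower at 2 weeks and 8.12% at 6 weeks in hHGF-NSG, and 4.48% and 8.59% in NSG hosts. The median 6-week change of these ADAM and ADAMTS genes was -0.68 in hHGF-NSG and -0.74 in NSG hosts, beside 0.06 and 0.05 over all genes. Adamts4, an aggrecanase, was at 2.23 to 3.81 FPKM in 6-week and 33.8 to 39.7 FPKM in naive tumours of hHGF-NSG hosts (-3.17 ± 0.37, limma adjusted p = 2.67e-05). In NSG hosts it was at 4.17 to 5.32 FPKM in 6-week and 20.5 to 57.3 FPKM in naive tumours (-2.58 ± 0.37, adjusted p = 0.000138). Adam8, a membrane protease of myeloid cells, also fell at 6 weeks (-2.31 in hHGF-NSG and -1.77 in NSG hosts), as did Adamts14, a procollagen N-proteinase (-1.30 and -1.90), and the membrane protease Adam12 (-1.63 and -1.42).

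Plasminogen activation feeds the Mmp system, since plasmin activates several zymogens. Of 7 genes tested, 3 fell at 6 weeks in each host, beside 8.12% of all genes in hHGF-NSG and 8.59% in NSG hosts, and 1, Serping1, rose in NSG hosts (0.64, limma adjusted p = 0.037), a call that 8 of 26 alternatives lost, among them those without NSG naive replicate 1 or 3 or without any single NSG 6-week library. The median 6-week change was -1.29 in hHGF-NSG and -1.20 in NSG hosts. Plau, the urokinase-type activator, was at 32.4 to 35.1 FPKM in 6-week and 72.2 to 102 FPKM in naive tumours of hHGF-NSG hosts, and at 54.1 to 59.6 FPKM in 6-week and 92.9 to 165 FPKM in naive tumours of NSG hosts. Its 6-week change was -1.29 ± 0.22 in hHGF-NSG and -1.20 ± 0.22 in NSG hosts (limma adjusted p = 0.000493 and 0.000807). Serpine2, an inhibitor of urokinase and thrombin, fell as well (-1.29 and -1.49).

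Of 11 other regulators tested, 5 fell at 6 weeks in hHGF-NSG (8.12% of all genes) and 4 in NSG hosts (8.59%) and none rose, with median changes of -0.74 and -0.48. A2m, a plasma protein that traps proteases, fell at 6 weeks (-2.44 in hHGF-NSG and -2.28 in NSG hosts) and was at 9.82 FPKM at most in naive tumours. Thbs1, which binds Mmp2 and activates TGF-beta, fell too (-2.63 and -2.02). Furin, which activates Mmp11 and Mmp14, also fell at 6 weeks and was at 11.1 to 20.6 FPKM in 6-week and 29.5 to 34.5 FPKM in naive tumours of hHGF-NSG hosts, and at 15.7 to 20.7 FPKM in 6-week and 28.3 to 46.9 FPKM in naive tumours of NSG hosts (limma adjusted p = 0.00587 and 0.00358). Lcn2, a neutrophil protein that complexes with Mmp9 in humans, was called lower in both hosts (-2.37 and -3.25), and the call in hHGF-NSG hosts was lost without hHGF-NSG naive replicate 2 (adjusted p = 0.0564).

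Of 9 cathepsins, lysosomal proteases, none was called in more than 2 of the 4 comparisons with naive tumours. Ctsk, which cuts collagen, rose in NSG hosts, where it was at 76.7 to 224 FPKM in naive, 308 to 597 FPKM in 2-week and 432 to 808 FPKM in 6-week tumours (1.99 ± 0.35 at 6 weeks, limma adjusted p = 0.000641). In hHGF-NSG hosts the change was 0.99 ± 0.35 (adjusted p = 0.0568), with 141 to 206 FPKM in 6-week and 79.5 to 95.4 FPKM in naive tumours. Ctsk at 6 weeks was lower in hHGF-NSG than in NSG hosts by -1.78 ± 0.35 (adjusted p = 0.032), a call that 10 of 26 alternatives lost, among them those without any single 6-week library. Ctsc was lower at 6 weeks in hHGF-NSG hosts (-0.68), a call lost without hHGF-NSG 6 weeks replicate 2 (adjusted p = 0.0541), and Ctsl at 2 weeks in NSG hosts (-0.52), a call lost in 8 of 26 alternatives, among them those without any single NSG naive library. The summed level of osteoclast markers, among them Calcr and Ocstamp at under 1 FPKM in every library, was 35.8 to 58.3, 46.6 to 142 and 92.7 to 214 FPKM in naive, 2-week and 6-week libraries, and its part in the change of Ctsk was not tested.

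Of 15 matrix substrates tested, 7 fell and 1 rose at 6 weeks in hHGF-NSG hosts, where 8.12% of all genes fell and 9.67% rose, and 5 fell and 2 rose in NSG hosts, where 8.59% fell and 8.81% rose. Col4a1 of the basement membrane was at 87.8 to 145 FPKM in 6-week and 258 to 408 FPKM in naive tumours of hHGF-NSG hosts, and at 62.2 to 87.5 FPKM in 6-week and 301 to 497 FPKM in naive tumours of NSG hosts. Its changes were -1.50 ± 0.26 and -2.44 ± 0.26 (limma adjusted p = 0.000731 and 8.10e-06), and its partner chain Col4a2 changed by -1.63 and -2.37. Vcan, a large proteoglycan, fell (-1.94 and -1.87). Dcn, a small proteoglycan of fibroblasts, rose, with 1.28 in hHGF-NSG and 1.99 in NSG hosts (adjusted p = 0.00704 and 0.000244).

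Transcription factors and cytokines known to induce Mmp3, Mmp9, Mmp10 and Mmp13 in cultured cells were also followed. Of 17 genes of AP-1, ETS and inducing cytokines, 2 were lower at 2 weeks and 4 at 6 weeks in hHGF-NSG hosts, 8 and 9 in NSG hosts, and none was higher. Of all genes 3.56% and 8.12% were lower in hHGF-NSG and 4.48% and 8.59% in NSG hosts. The median change of the 17 genes was -0.55 and -0.60 at 2 weeks in hHGF-NSG and NSG hosts, and -0.60 and -0.94 at 6 weeks. Fos was at 4.40 to 9.32 FPKM in 2-week and 23.2 to 86.8 FPKM in naive tumours of NSG hosts, a change of -2.69 ± 0.41 (limma adjusted p = 0.0005), and it was also called lower there at 6 weeks (-2.62). In hHGF-NSG hosts Fos was at 4.05 to 9.85 FPKM in 2-week and 16.2 to 27.4 FPKM in naive tumours (-1.52 ± 0.41, adjusted p = 0.0306), a call that 7 of 26 alternatives lost, among them those without naive replicate 1 or 2 or 2-week replicate 2 or 4. At 6 weeks it was not called in these hosts, at 9.66 to 28.4 FPKM (-0.51 ± 0.44, adjusted p = 0.477). Il1b was at 3.69 to 4.92 FPKM in 6-week and 11.6 to 38.0 FPKM in naive tumours of hHGF-NSG hosts, a change of -2.10 ± 0.42 (adjusted p = 0.00198). Fosl2 was called lower in all 4 comparisons, and its 6-week call in hHGF-NSG hosts (-0.90, adjusted p = 0.00164) held under all alternatives. The other 3, with -0.60 to -0.61, and the 3 calls of Fosl1, at 9.61 FPKM at most, were lost without single libraries, NSG naive replicate 1 among them in NSG hosts.

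**Figure D4:**
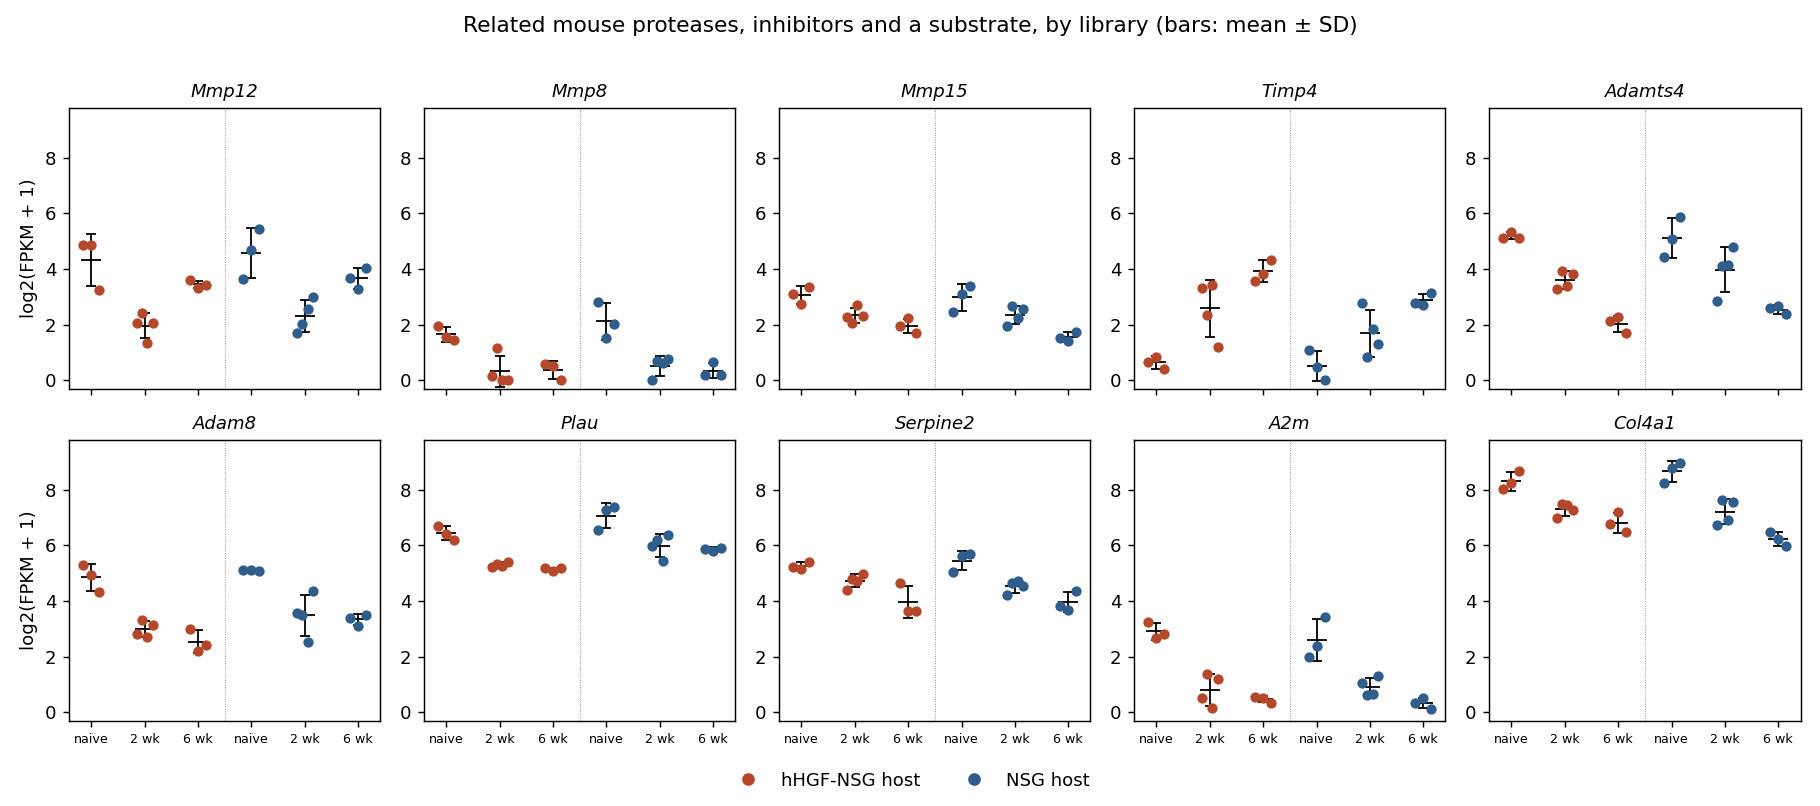
Levels of 10 related mouse genes as log2(FPKM + 1) in each of the 20 mouse libraries, by host and time on alectinib; points are libraries, bars the mean and SD. Mmp12 dips at 2 weeks, Timp4 climbs, and the group means of the other genes are lower in treated than in naive tumours.

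The tumour cells' own transcripts were read from the human table, 22 libraries with 10688632 to 19065656 reads, in which NSG naive and NSG 6-week groups hold 4 libraries. Levels of the 2 tables were normalized separately and are not compared in size. Of 13 human counterparts, 5 passed the filter, and all 5, MMP9, MMP10, MMP14, TIMP1 and TIMP2, were called lower in each of the 4 comparisons with naive tumours. MMP9 passed it through naive libraries, at 0.570 to 7.78 FPKM, with at most 0.976 FPKM at 2 weeks and 1.06 FPKM at 6 weeks. Its calls are thus a description of a gene kept for its naive level. In hHGF-NSG hosts 26.6% of all human genes were lower at 2 weeks and 25.5% at 6 weeks, and in NSG hosts 28% and 28.8%. MMP13, MMP2, MMP3 and MMP19 were near absent in the human table, with at most 13, 2, 3 and 5 reads in any library.

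Human MMP10 was at 2.64 to 4.73 FPKM in naive, 1.15 to 1.96 FPKM in 2-week and 1.02 to 1.75 FPKM in 6-week tumours of hHGF-NSG hosts. In NSG hosts it was at 3.70 to 7.32, 2.18 to 2.77 and 1.52 to 2.39 FPKM, so that no treated library reached a naive one. Its 6-week change was -0.96 ± 0.20 in hHGF-NSG and -1.09 ± 0.17 in NSG hosts (limma adjusted p = 0.00041 and 1.75e-05). The human libraries held 69 to 203 MMP10 reads in naive tumours and 21 to 84 under treatment. The mouse libraries held 16 to 92 Mmp10 reads in naive tumours and 0 to 12 under treatment. Human libraries were deeper, with 10688632 to 19065656 reads against 895826 to 5766509 in mouse, so these reads are not compared in size. Human TIMP1 was lower at 6 weeks by -0.60 ± 0.22 in hHGF-NSG and -1.20 ± 0.19 in NSG hosts (adjusted p = 0.0269 and 1.93e-05). The call of TIMP1 in hHGF-NSG hosts was lost without hHGF-NSG naive replicate 1 or 2 or hHGF-NSG 6 weeks replicate 2, with adjusted p up to 0.128.

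Human MMP9, unlike mouse Mmp9, fell at 2 weeks (-2.32 in hHGF-NSG and -1.44 in NSG hosts), and so did human MMP14 (-1.07 and -0.80), though the difference between species was not tested. In the human table NSG naive replicate 2 stood apart with 0.570 FPKM of MMP9 against 3.38 to 5.79 FPKM in the other 3 libraries of its group, and the calls of MMP9 held without it. TIMP2 fell at 2 weeks (-2.81 in hHGF-NSG and -1.55 in NSG hosts). The 6-week call of MMP14 in hHGF-NSG hosts was lost without naive replicate 3 or 6-week replicate 3, and that of TIMP2 in NSG hosts without naive replicate 1 or 6-week replicate 3.

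**Figure D5:**
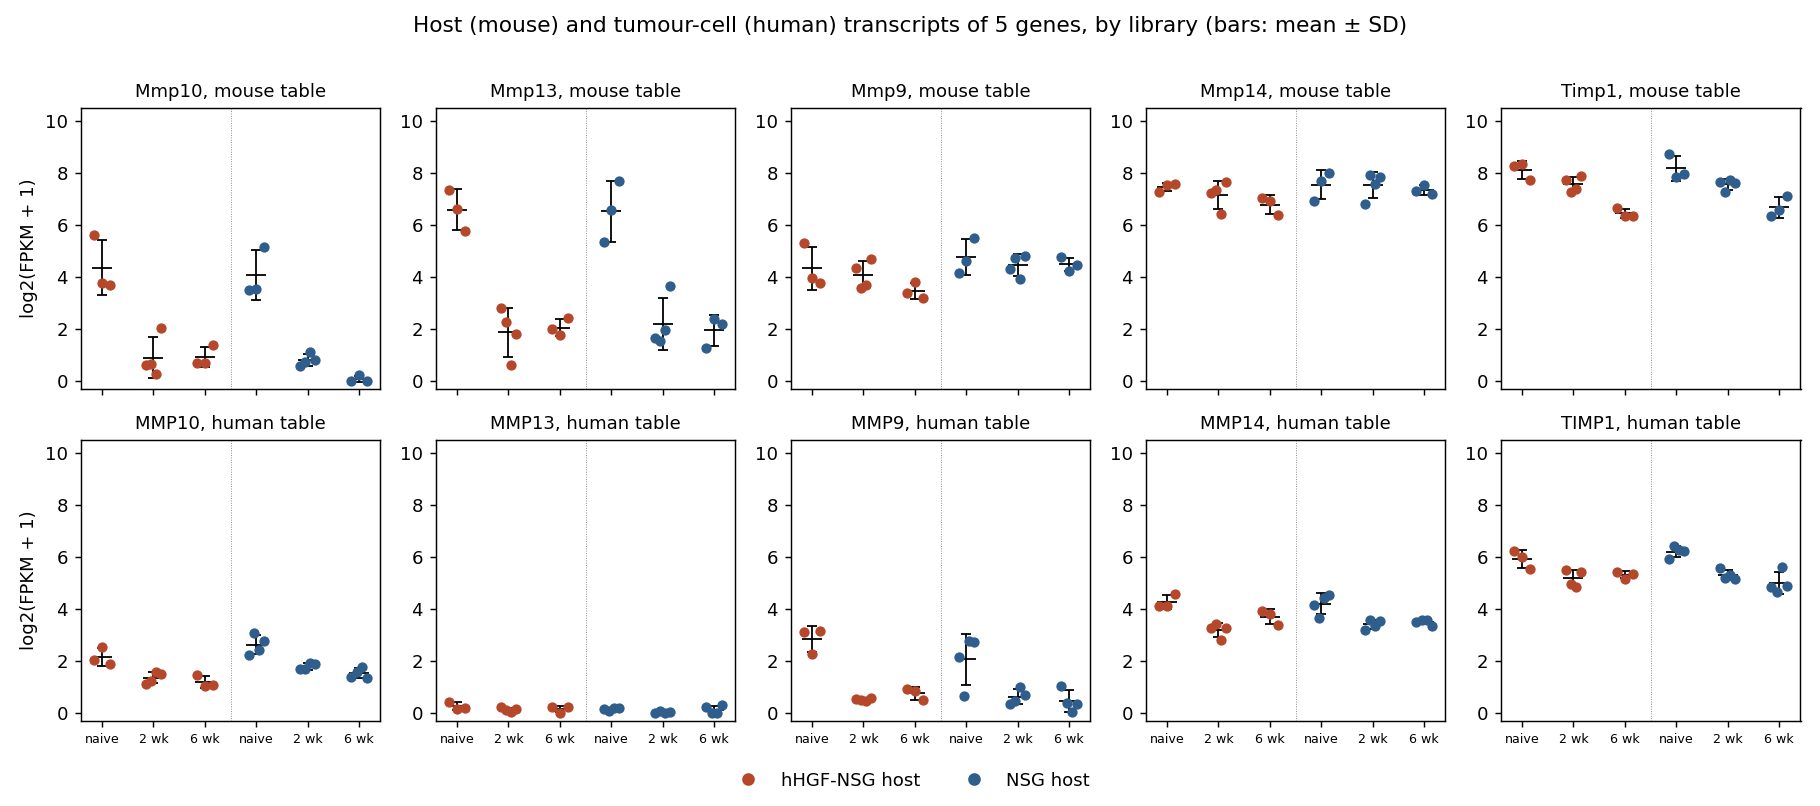
Mouse (top) and human (bottom) transcripts of 5 genes as log2(FPKM + 1) in each library, by host and time on alectinib; points are libraries, bars the mean and SD, and the 2 tables were normalized separately. Mouse Mmp13 is high in naive tumours where human MMP13 is near 0. Mouse Mmp10 and human MMP10 are both lower under treatment than in naive tumours, mouse Mmp10 lying mostly near 0.

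Across the 20 mouse libraries Mmp13 and Mmp10 varied together, with a Pearson correlation of log2(FPKM + 1) of 0.93 that became 0.50 once each group's mean was taken off. Mmp11 and Timp1 ran against each other at -0.85, or -0.33 within groups, and Mmp11 and Mmp2 together at 0.74, or 0.82 within groups. Mmp14 and Timp3 reached 0.61 and 0.78 within groups. These are descriptions over libraries that share depth and tissue make-up. The tested protein-coding genes most like Mmp10 were Esm1 (0.96) and Slc2a1 (0.95), those most like Mmp13 Ero1l (0.96) and Slc2a1 (0.96), those most like Mmp11 Surf1 (0.90) and Mturn (0.90), and those most like Timp1 Sept11 (0.91) and Top2a (0.91). Within groups these correlations were 0.79 and 0.75 for Mmp10, 0.72 and 0.63 for Mmp13, 0.67 and 0.57 for Mmp11, and 0.46 and 0.40 for Timp1. For Mmp2 the closest gene was Htra1 (0.91, or 0.88 within groups), for Mmp14 Galnt17 (0.90, or 0.87 within groups) and for Timp3 Svep1 (0.82 in either form).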

How the data were processed

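RNA from 22 xenograft samples, isolated with TRIzol according to the labels' protocols, was sequenced in bulk. The authors deposited 1 FPKM value per gene and sample and the gene length, per the file headers, in a human and a mouse table. Builds hg38 (GRCh38) and mm10 and the tool DESeq2 are listed in the submitters' processing notes. Aligner, annotation and species separation were not given in the sources used here, and a read shared by both species could be counted in either table. Mouse values of replicate 2 of NSG naive and replicate 4 of NSG 6 weeks were not analysed here. Since no label states that replicates are separate animals, the p-values measure only spread between samples, which may be technical. No replicate pair agreed within counting noise, with a chi-square per degree of freedom of at least 3.71 in mouse and 4.04 in human reads.

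Low FPKM values fall on steps of 1 read, from which whole reads were recovered, and 100% of values of 1 to 200 reads came out whole within 0.05. Precision is limited by these reads, for counting error only. Values were transformed to log2(FPKM + 1), which understates changes of low genes, and genes at 1 FPKM or more in at least 3 samples entered limma 3.58.1 (R 4.3.3), with 1 mean per group over all libraries of a table, empirical Bayes moderation with a mean-variance trend, two-sided tests and Benjamini-Hochberg adjustment over all genes. The 10 genes and the gene and marker lists were chosen with earlier results of these data known. From each list up to 4 genes called in most comparisons were named, while Mmp17, Mmp27, Mmp28 and Timp2 were named after their values were seen. One gene of the plasminogen list is not reported here by name. Alternatives were a pseudocount of 0.1, no filter, median-ratio scaling, a replicate block, voom on recovered reads, and each library left out. Thinned reads, for the mouse table only, were added after seeing the data. The scripts were tested on simulated data. No sequences are printed, since no mouse sequence table was used here. Python 3.11.15 with pandas 2.3.3 and scipy 1.17.1 made the summaries.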

Additional observations from a re-analysis of the deposited data

Results flagged for a closer look

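Within groups of 4 libraries, 119 sets of values were screened for 1 library far from the other 3, and 6 were flagged, where chance flags about 1 in 20. In the mouse table the level of Mmp8 in hHGF-NSG 2 weeks replicate 2 was 1.239 FPKM, against 0 to 0.126 FPKM in the others. The other 5 were human genes at or near 0 in their groups. MMP2 was at 0.01213 FPKM in NSG naive replicate 4, and MMP3 was at 0.02749 FPKM in NSG 2 weeks replicate 4 and at 0.02584 FPKM in hHGF-NSG 2 weeks replicate 2, each from 1 read. MMP19 was at 0.06226 FPKM in NSG 6 weeks replicate 1, from 4 reads. MMP11 was low in NSG naive replicate 2, at 0.07344 FPKM, the library that also had the lowest MMP9, MMP14 and TIMP2 of its group. None of the 37 named mouse genes tested had a called difference in response between hosts.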

How the results depend on the processing

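The falls of Mmp13 and Mmp10 at both times and of Timp1 at 6 weeks, and the rise of Mmp11 at 6 weeks, kept their direction and call under all 26 alternatives in each host. Of the 17 calls among the 10 genes 12 did so, and of 89 calls of other named mouse genes 56. Of 20 human calls 17 held under all alternatives of the human table, which left out each of its 22 libraries in turn and included no thinned reads. No direction reversed. Among the 10 genes 1 call was gained, Mmp10 at 6 against 2 weeks in NSG hosts with a pseudocount of 0.1 (-2.60, adjusted p = 0.0463). Counts of all mouse genes called moved more.

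With a pseudocount of 0.1, 88 genes were called at 6 against 2 weeks in hHGF-NSG (155 as reported), 13 between hosts in naive tumours (6), 15 between hosts at 6 weeks (36) and 0 in the F-test (3). With no filter the counts were 351 at 6 against 2 weeks in NSG (556), 92 in hHGF-NSG and 13 between hosts in naive tumours. With voom they were 980 and 584 at 6 against 2 weeks in NSG and hHGF-NSG, 0 and 74 between hosts in naive tumours and at 6 weeks, and 1 in the F-test. Thinned reads gave 702 and 615 at 2 weeks against naive in NSG and hHGF-NSG (1115 and 1008), 368 and 76 at 6 against 2 weeks, 1 and 11 between hosts in naive tumours and at 6 weeks, and 0 in the F-test. Leaving out 1 library gave 653 to 1217 and 485 to 1135 at 2 weeks in NSG and hHGF-NSG, 1721 to 2636 and 1645 to 2666 at 6 weeks (2486 and 2541), 139 to 643 and 15 to 490 at 6 against 2 weeks, 0 to 119, 36 to 76 and 8 to 54 between hosts in naive tumours, at 2 and at 6 weeks, and 1 to 8 in the F-test. The lowest counts were without NSG 2 weeks replicate 3 and hHGF-NSG naive replicate 1 at 2 weeks, without NSG 6 weeks replicate 3 and hHGF-NSG 6 weeks replicate 2 at 6 weeks, and without NSG 6 weeks replicate 1 and hHGF-NSG 6 weeks replicate 2 at 6 against 2 weeks. Without NSG naive replicate 1 the hosts differed in 119 genes in naive tumours. The cause was not tested, other than fewer reads or libraries by construction.

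With a replicate block the counts were 327 and 53 at 6 against 2 weeks in NSG and hHGF-NSG, and 0 and 22 between hosts in naive tumours and at 6 weeks. Equal replicate numbers were not taken as pairs in the reported fits. In the mouse table the correlation of deviations was -0.13 to 0.107 over 43 same-numbered pairs, and 2 of 20 libraries correlated best with their own number. In the human table it was -0.33 to 0.26 over 51 such pairs, and 7 of 22 libraries did so. These correlations cannot exclude that samples of equal number shared an animal, litter or batch. Mmp10 under treatment (0 to 12 reads) and Mmp8 are where depth limits the values most.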
